A study of Mus musculus with 4 samples.

Results

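The 10 genes described here are those by which astrocytes are usually recognised: the glutamate transporters Slc1a2 and Slc1a3, the glutamine-making enzyme Glul, the connexins Gja1 and Gjb6, the water channel Aqp4, the filament gene Gfap, the calcium-binding protein S100b, the folate enzyme Aldh1l1 and the transcription factor Sox9. They were taken as all probe sets that the array's probe table assigns to exactly 1 of these symbols, which gave 33 of the 45101 probe sets on the array. A further probe set was left out because the table gives it 2 genes, Gm13872 and Slc1a2. RNA came from the whole hippocampus of the left side of wild-type mice, in 4 samples numbered 11, 13, 15 and 17 which the series text calls biological replicates; they make up 1 group. No treatment or altered allele is named, and strain, age and sex are not given in the labels used here. Each sample was hybridised to 1 Affymetrix array, and the values are log2 intensities, always listed below in the order of samples 11, 13, 15 and 17. The question put to the data was how each gene stood in every sample, and whether the several probe sets of a gene told the same story.

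Astrocytes take up the glutamate that neurons release, chiefly through Slc1a2 and Slc1a3, and glutamine synthetase, the product of Glul, turns it into glutamine that is handed back to neurons. Connexins join astrocytes into a coupled network through which ions and metabolites spread, and Aqp4 lets water pass at the endfeet that wrap blood vessels. Gfap builds the intermediate filaments of these cells and is the usual marker of fibrous and reactive astrocytes, while Sox9 helps to set the glial fate during development.

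Promoters are shown for Gfap, S100b and Slc1a3, the member genes whose probe sets agreed most closely or differed most between samples. Each line holds the 250 bases before the annotated start, 5′ to 3′ on the gene's strand, from RefSeq on build GRCm38.p6. They lie at chr11:102897201-102897450 on the minus strand, chr10:76253586-76253835 on the plus strand and chr15:8710808-8711057 on the minus strand, in that order. Capitals mark matches, on either strand, to a TATA box (TATAAA), a motif of nuclear factor I (TTGGCA or TTGGCC), a STAT site (TTCNNNGAA), a SOX core (ACAATG or ACAAAG) or a GC box (GGGCGG).
Gfap: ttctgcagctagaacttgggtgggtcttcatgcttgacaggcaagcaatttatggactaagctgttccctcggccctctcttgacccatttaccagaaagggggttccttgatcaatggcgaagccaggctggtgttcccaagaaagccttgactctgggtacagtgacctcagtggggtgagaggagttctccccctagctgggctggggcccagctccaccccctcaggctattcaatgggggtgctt
S100b: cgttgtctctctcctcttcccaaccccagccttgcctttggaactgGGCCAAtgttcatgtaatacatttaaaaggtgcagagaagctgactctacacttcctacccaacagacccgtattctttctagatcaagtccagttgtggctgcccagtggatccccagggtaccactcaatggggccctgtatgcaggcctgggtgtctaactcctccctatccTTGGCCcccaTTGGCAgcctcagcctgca
Slc1a3: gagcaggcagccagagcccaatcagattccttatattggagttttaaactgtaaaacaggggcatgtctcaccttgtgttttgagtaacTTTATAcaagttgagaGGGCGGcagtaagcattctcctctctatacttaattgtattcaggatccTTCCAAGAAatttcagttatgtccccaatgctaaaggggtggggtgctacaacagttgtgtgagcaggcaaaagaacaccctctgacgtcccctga
The S100b window held 3 nuclear factor I motifs, beginning 204, 29 and 19 bases before the start. Such a motif was found in 23.6% of all 32851 windows of this length and in 2 of the 8 windows available for member genes. The Slc1a3 window held a TATA box letter match 161 bases, a GC box 145 bases and a STAT site 96 bases before the start, where 12.4%, 32.7% and 7.02% of all windows held the same motif. The Gfap window held none of these letter strings. The array does not read promoters, so these matches describe the sequence only.

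The signal over background was judged first. A probe set was called above background when its mean exceeded 6.94, the 95th percentile over 46 genes typical of organs such as skin, liver or testis. By this limit 21 of the 33 member probe sets and 9 of the 10 member genes were above background, against 37.9% of all 18194 genes and 23.4% of all probe sets. Sox9 was the exception: its probe set with the highest mean, 1451538_at, stood at 6.30 ± 0.15 (SD, n = 4), which is above the 90th percentile of the same genes at 6.03. A level under the limit does not show that a transcript was absent, and levels of different probe sets are not ranked here because their affinities differ. All 12 neuron markers and 21 of 21 other astrocyte markers were above background, while only 1 of 12 choroid plexus and ependyma markers was. Hybridisation controls, 15 probe sets, had a median SD of 0.0461 over the samples, and the median absolute difference between 2 arrays lay between 0.0679 and 0.111 over all genes above background. The labels do not say how the tissue was handled sample by sample, and the spread reported below may be technical in part. In a whole hippocampus, fewer cells of a type and less RNA per cell cannot be told apart.

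The main glutamate transporter of forebrain astrocytes, Slc1a2, kept nearly the same level in all samples by its brightest probe set. Probe set 1438194_at read 12.04, 11.93, 11.92 and 11.81, a mean of 11.93 ± 0.094 (SD, n = 4) and a 1.17-fold span. The second one above background, 1439940_at, read 7.44, 7.25, 7.22 and 6.85 in the same sample order, a 1.51-fold span. Both were highest in sample 11 and lowest in sample 17. The probe set 1451627_a_at had its lowest value where these had their highest: it read 6.30, 7.28, 6.75 and 6.79, and its mean of 6.78 ± 0.40 lay just under the background limit. The remaining probe sets, 1433094_at and 1459014_at, were at 5.54 ± 0.041 and 3.38 ± 0.063. The sets under the limit give no basis for an order of the samples.

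Slc1a3, the transporter that radial glia also carry, had 4 of 6 probe sets above background by their means, and the dimmest of them ran against the other 3. Probe set 1443749_x_at read 9.73, 9.55, 9.74 and 9.83 (mean 9.71 ± 0.12, n = 4). The suffix x_at marks a set with probes that may also bind other transcripts. Probe set 1426340_at read 8.88, 8.81, 9.09 and 9.12 in the same order, and 1452031_at read 8.71, 8.72, 9.01 and 9.01. In these 3, samples 15 and 17 both exceeded samples 11 and 13. For 1443749_x_at, sample 15 did so over sample 11 by very little, 9.74 against 9.73. Probe set 1426341_at went down instead, reading 7.85, 7.26, 6.60 and 6.46, a 2.62-fold span and an SD of 0.64. It was the most variable of all member probe sets. Its mean of 7.04 was above the background limit, but its values in samples 15 and 17 were under it. The span of this set therefore includes readings that cannot be told from background. The difference between 1452031_at and 1426341_at was 0.859, 1.47, 2.41 and 2.55, so it changed by 1.69 on the log2 scale. The dim sets 1439072_at and 1440491_at were at 4.73 ± 0.041 and 3.01 ± 0.059.

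Glul, which encodes glutamine synthetase, was the steadiest member. Its probe set 1426236_a_at read 10.42, 10.46, 10.46 and 10.42, with a mean of 10.44 ± 0.021 (SD, n = 4). That SD is under the 0.0461 of the hybridisation controls. The other set, 1426235_a_at, read 8.75, 8.88, 8.79 and 8.70, a 1.13-fold span.

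The water channel Aqp4 also gave readings that parted between its probe sets. Probe set 1434449_at read 9.12, 9.14, 9.07 and 9.25 (mean 9.14 ± 0.074, n = 4), a 1.13-fold span. Probe set 1425382_a_at, whose suffix marks probes shared by transcript variants of 1 gene, read 7.97, 7.90, 7.31 and 7.04, so that sample 11 stood 1.9-fold above sample 17. Samples 11 and 13 were thus alike and above samples 15 and 17 in this set only. The difference between both sets was 1.15, 1.24, 1.76 and 2.20, a change of 1.05. Probe set 1447745_at, at 4.52 ± 0.033, was under background.

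The connexins that couple astrocytes were both highest in sample 13 by their brightest probe sets. Gja1 read 10.50, 10.66, 10.45 and 10.50 with 1437992_x_at, a mean of 10.53 ± 0.094 (SD, n = 4). Its set 1415800_at read 9.07, 9.40, 9.40 and 9.40, and 1438945_x_at read 8.72, 8.89, 8.82 and 8.89. In 1438650_x_at the values were 8.57, 8.64, 8.53 and 8.51. Sample 11 was lowest in 1415800_at and 1438945_x_at but not in the other pair of sets, and 3 of the 4 sets of Gja1 above background may cross-hybridise by their suffix. The sets 1438973_x_at and 1415801_at were at 4.71 ± 0.042 and 3.11 ± 0.12. Gjb6 has a single probe set, 1448397_at, which read 8.34, 8.75, 8.43 and 8.43 (mean 8.49 ± 0.18, n = 4). Sample 13 was 1.33-fold above sample 11, and no second set was there to compare.

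Gfap, the filament gene, was lowest in sample 11 and highest in sample 13 in all 3 of its probe sets. The brightest, 1426508_at, read 9.98, 10.49, 10.25 and 10.44, a mean of 10.29 ± 0.23 (SD, n = 4) and a 1.43-fold span. Probe set 1426509_s_at read 9.06, 9.62, 9.36 and 9.50, and 1440142_s_at read 7.14, 8.09, 7.50 and 7.50. Sample 13 exceeded sample 11 by 1.43-fold, 1.47-fold and 1.94-fold in that order. The sets differed in sample 17, which lay close to sample 13 in 1426508_at and level with sample 15 in 1440142_s_at. The suffix s_at marks probes shared by several transcripts, and the table assigns these sets to Gfap alone.

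S100b, a small calcium-binding protein that astrocytes also secrete, was higher in samples 15 and 17 in both of its probe sets. Probe set 1434342_at read 8.78, 8.80, 9.05 and 9.03 (mean 8.92 ± 0.15, n = 4). Probe set 1419383_at read 8.61, 8.69, 8.91 and 8.85. The highest stood 1.21-fold and 1.23-fold above the lowest, and the difference between the sets changed by only 0.0618. Aldh1l1, an enzyme of folate metabolism that marks astrocytes broadly, read 7.77, 8.08, 8.23 and 8.25 with 1424400_a_at, a mean of 8.08 ± 0.22 and a 1.39-fold span. Sample 11 was the lowest, and the second set, 1424401_at, was under background at 4.05 ± 0.13. Sox9 was highest in sample 13 in each of its 3 sets, all under the background limit. Its set 1451538_at read 6.27, 6.51, 6.21 and 6.19, 1424950_at read 6.25, 6.46, 6.25 and 6.21, and 1433889_at read 3.31, 3.49, 3.39 and 3.36.

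**Figure D1:**
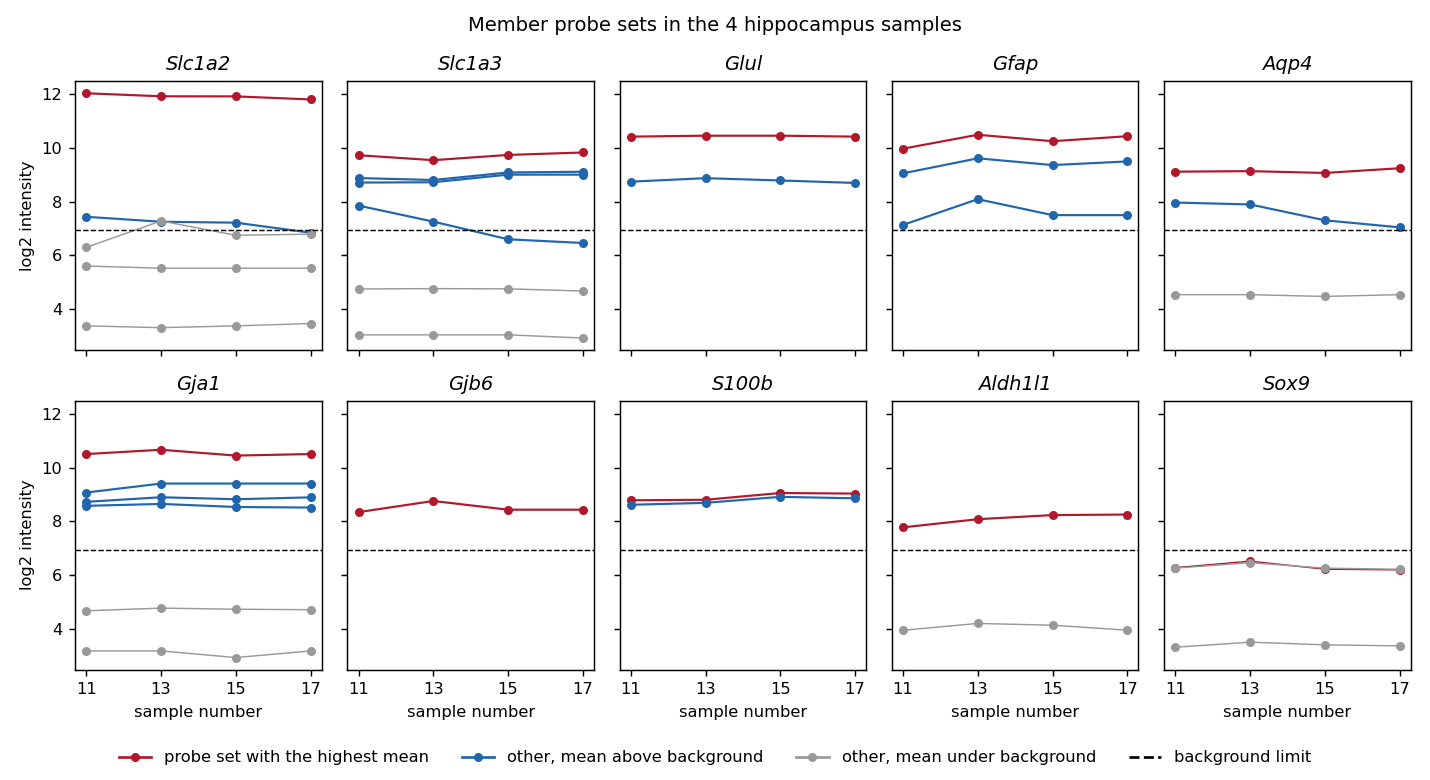
Log2 intensity (vertical axis) of all 33 member probe sets in samples 11, 13, 15 and 17 (horizontal axis), 1 panel for each gene, with lines joining the values of 1 probe set and no order implied among samples. Red is the probe set with the highest mean, blue the others above the background limit of 6.94 (dashed) and grey those under it; the 3 Gfap sets share their lowest and highest samples, while 1 blue Slc1a3 set falls from 7.85 to 6.46 as the others do not.

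How much the members varied could be described but not tested. In the limma test of spread, in which the variance of a probe set over the samples is set against the fitted variance at its level, 0 of 21 member probe sets had an adjusted p under 0.05. The background was 0 of 10561 probe sets, or 0%, and the smallest adjusted p was 0.894 for members and for all. The fitted prior had only 2.3 degrees of freedom, and the test did not call Ttr, which spanned 9.87-fold, nor changes planted in simulated data as uneven as these arrays. Its count of 0 therefore says nothing about whether the members varied. At an unadjusted p under 0.05 there were 4 of the 21, against 3.1% of all: 1426341_at of Slc1a3, 1425382_a_at of Aqp4, and 1440142_s_at and 1426508_at of Gfap. A range over 0.5 between the highest and the lowest sample was seen in 6 of the 21 member probe sets and in 6.42% of all. Of these 6, 3 belong to Gfap and the others to Slc1a2, Slc1a3 and Aqp4, so they are not 6 separate genes. The median SD of the 9 member genes above background, by their brightest sets, was 0.12, against 0.082 for all 6894 such genes.

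A second test asked whether the probe sets of a gene moved together over the samples. Where a gene had 2 or more such sets, the variance shared by the sets was divided by their disagreement, squeezed with limma. Of 7 member genes, 1 was called at an adjusted p of 0.05, Gfap (F = 17.4, adjusted p = 0.0422, limma), and the background was 44 of 1949 genes, or 2.26%. All 3 Gfap sets were lowest in sample 11, and 1426508_at and 1426509_s_at carry the same accession in the probe table, so they may not be separate readings. The adjusted p was 0.332 without sample 11, 0.155 without sample 15, 0.0726 without sample 17 and 0.0484 without sample 13, all by the limma-squeezed test. The mean square between samples, 0.237 with all samples, was 0.104 without sample 11 but 0.353 without sample 15 and 0.346 without sample 17, and calls over all genes fell from 44 to between 2 and 9 with any sample left out. The adjusted p of Gfap in the limma-squeezed test was also 0.0671 with the 90th percentile as the background limit. It was 0.0572 after the arrays were quantile normalized again. S100b came next (F = 20.8, adjusted p = 0.0705), followed by Slc1a2 (0.196), Gja1 (0.259), Glul (0.528), Aqp4 (0.59) and Slc1a3 (0.864), all from the same limma-squeezed test. At an unadjusted p under 0.05 there were 3 of the 7, Gfap, S100b and Slc1a2, against 22.1% of all genes tested. A missed threshold does not show that the samples were alike. The sets of a gene share each array, so a call cannot tell a difference between tissues from one between arrays.

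**Figure D2:**
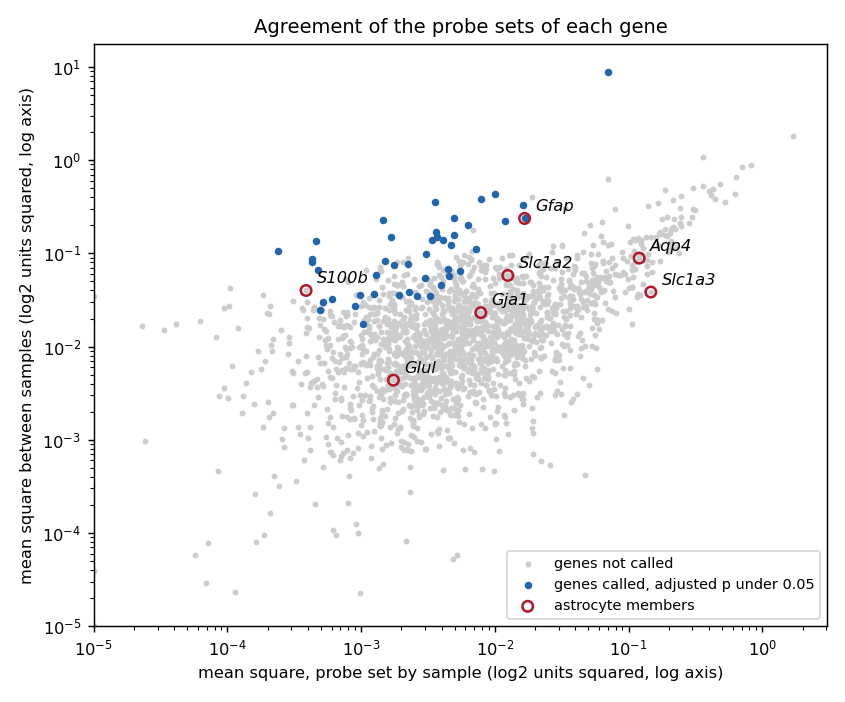
Each of 1949 genes that had several probe sets above background, by disagreement between sets (horizontal, mean square of the interaction) and shared movement (vertical, mean square between samples), both on log axes in squared log2 units, with smaller values drawn at the lower edge. Blue points are the 44 called genes and red rings the 7 members: Gfap lies among the called genes, S100b has little disagreement, and Slc1a3 and Aqp4 lie far to the right.

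Disagreement between probe sets was largest in Slc1a3 and Aqp4 among the 7 member genes. Between samples, the difference between 2 sets of a gene changed by over 1 on the log2 scale in 2 of the 7 member genes, these 2, and in 5.13% of the 1949 genes. Because more sets give more chances, genes with the same number of sets are the closer yardstick. That change was passed by 3.64% of 1401 genes with exactly 2 sets, as Aqp4 has, by 8.44% of 379 with exactly 3, as Gfap has, and by 11.7% of 120 genes with exactly 4, as Slc1a3 and Gja1 have. The limit of 1 was chosen after the values had been seen. The change was 0.539 for Gfap, 0.398 for Gja1, 0.362 for Slc1a2, 0.142 for Glul and 0.0618 for S100b, around a median of 0.248 over all these genes. In Slc1a3 and Aqp4 it rested on 1 dim set each, 1426341_at (mean 7.04) and 1425382_a_at (mean 7.55). The Slc1a3 set was under the main background limit in samples 15 and 17, while the Aqp4 set was above it in all samples. With the highest background limit, 8.43, both sets were left out. The mean square of disagreement of Slc1a3 was then 0.0038 over 3 sets, with an adjusted p of 0.0304 in the limma-squeezed test. Aqp4 had too few sets left to be tested. The control transcripts that the array reads at several positions also differed most in samples 15 and 17. For Gapdh the signal at the 3' end minus that at the 5' end was 0.62, 0.62, 2.64 and 3.79, and for beta-actin it was 1.10, 1.25, 1.93 and 2.33. Slc1a2 1439940_at, Slc1a3 1426341_at and Aqp4 1425382_a_at were all lowest in sample 17. With the Gapdh end difference as a covariate, the mean square of disagreement went from 0.12 to 0.0020 for Aqp4, from 0.147 to 0.0274 for Slc1a3 and from 0.0125 to 0.0041 for Slc1a2, beside a median over all genes that went from 0.0052 to 0.0028. For Gfap it went from 0.0167 to 0.0151. In samples 11 and 13 alone it was 0.0020 for Aqp4 and 0.0363 for Slc1a3, beside a median over all genes of 0.0022. In the same samples it was higher for Gfap, at 0.0294, and for Slc1a2, at 0.215, which then had 3 sets above background. S100b, higher in samples 15 and 17 in both sets, had a mean square between samples of 0.0106 with the covariate and 0.0400 without it. Its adjusted p in the limma-squeezed test went from 0.0705 to 0.177, while that of Gfap went from 0.0422 to 0.00326. Calls over all genes rose from 44 to 184 with the same covariate, so a lower adjusted p was not particular to Gfap. With 4 samples, the end difference cannot be told apart from anything else that separates samples 15 and 17 from the others, and the position of each probe set along its transcript was not analysed here. Among all probe sets above background with a range over 0.5, 49.7% were lowest in sample 17 and 25.2% in sample 11.

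**Figure D3:**
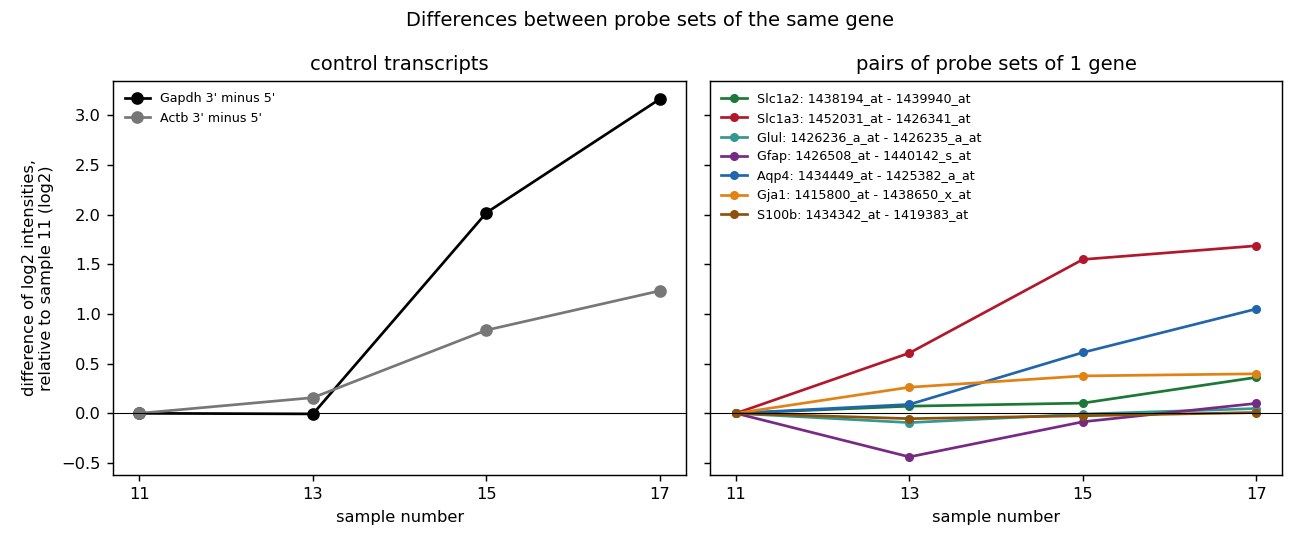
Difference of log2 intensities between 2 probe sets, drawn relative to sample 11 (vertical axis, log2), in samples 11, 13, 15 and 17 (horizontal axis). The left panel has the 3' minus 5' difference of the control transcripts of Gapdh and beta-actin, the right panel the most divergent pair of sets above background of each of 7 member genes; Slc1a3 and Aqp4 are highest in samples 15 and 17, and Glul and S100b stay near 0.

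Across the members, sample 11 was the most frequent lowest sample, as it was over all genes above background. By the brightest set, 5 of the 9 member genes above background were lowest in sample 11 (48% of all genes were), 1 in sample 13 (18.4%), 2 in sample 15 (12.8%) and 1 in sample 17 (13.1%), and 7.69% of all genes were tied. The highest value fell in sample 13 for 3 genes, Gfap, Gja1 and Gjb6, where 18.2% of all genes had it. It fell in sample 17 for 3, Slc1a3, Aqp4 and Aldh1l1 (38.9% of all), in sample 15 for S100b (27.6%; in sample 17 after median centring) and in sample 11 for Slc1a2 (9.27%), with a tie for Glul (5.99%). The mean deviation of the 9 genes from their own means was -0.094, 0.037, 0.0087 and 0.048. All genes above background had deviations of -0.051, -0.0011, 0.02 and 0.032 in the same order. The value of the members in sample 15 changed sign, to -0.0018, when the arrays were quantile normalized again, and Aqp4 in sample 11 went from -0.025 to 0.006. After quantile normalization 3 of the 9 genes were lowest in sample 11 in place of 5, because S100b was then lowest in sample 13 and Glul in sample 17; after median centring the number was 5. Gfap, Gjb6 and Aldh1l1 were lowest in sample 11, and Gfap, Gja1 and Gjb6 highest in sample 13, under all 3 scalings.

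The related gene lists put the members in context. Of the 21 other astrocyte markers, 11 were highest in sample 15 and 0 in sample 11, where 27.6% and 9.27% of all genes above background were. Their mean deviations were -0.088, -0.023, 0.089 and 0.022. Aldoc, a glycolytic enzyme of astrocytes, had a level of 12.13 ± 0.043 and the lipid carrier Apoe of 12.10 ± 0.16, and the most variable were the coagulation factor F3 (7.05, 7.50, 7.46 and 7.65) and the growth factor receptor Fgfr3 (8.41, 8.17, 8.68 and 8.40). This list was therefore not highest in sample 13, unlike Gfap, Gja1 and Gjb6. For partners in the glutamate cycle, 13 of 16 measured genes were above background and their mean deviations stayed between -0.012 and 0.012, with signs that changed in samples 11, 15 and 17 under other scalings. The transporters Slc1a1 of neurons and Slc1a4 had levels of 9.91 ± 0.048 and 7.10 ± 0.11, and the glutamine transporter Slc38a3 (6.99 ± 0.18) and the glutamate receptor Grm3 (8.93 ± 0.15) varied most.

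Among the other connexins, pannexins and junction genes, 3 of 13 measured were above background: Panx1, Panx2 and Tjp1, of which Panx1 was named after its value was seen. Their levels were 7.18 ± 0.056, 7.68 ± 0.12 and 8.55 ± 0.059. The oligodendrocyte connexin Gjb1 and the astrocyte and meningeal connexin Gjb2 were under it at 6.22 ± 0.18 and 6.65 ± 0.21. Of the water, potassium and endfoot genes 11 of 15 passed, and the potassium channel Kcnj10, which clears potassium beside Aqp4, read 8.21, 8.63, 8.34 and 8.23, highest in sample 13 as Gjb6 was. The endfoot protein Dtna read 9.42, 9.24, 9.15 and 8.90, and Kcnj16 was under background at 5.38 ± 0.014.

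For the intermediate filaments, 6 of 12 genes were above background, and Vim, which assembles with Gfap, read 7.66, 8.01, 7.99 and 7.88. It was lowest in sample 11 and highest in sample 13, as Gfap was. Plec, which links filaments to other structures, read 8.72, 8.71, 9.03 and 8.93, and Nes was under background at 6.65 ± 0.078. Of genes known to rise in reactive astrocytes, 4 of 28 measured were above background: Serpina3n, Vim, S100a10 and Tm4sf1, the last named after its value was seen. Serpina3n, a protease inhibitor, read 7.37, 7.80, 7.75 and 7.62, and S100a10 read 7.32, 7.70, 7.68 and 7.74. All 4 were lowest in sample 11, as 48% of all genes above background were. The list deviated there by -0.26, where the 3 genes not expected in hippocampus but above the limit deviated by -0.16, and Lcn2, a strong marker of reactive glia, was under background at 2.69 ± 0.094. These 4 passed a limit that removed the other 24, so their number is no measure of the list.

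Of the S100 family list 5 of 12 were above background, where S100a1 had a level of 9.11 ± 0.085 and S100a13 of 8.07 ± 0.15, while S100a3 stood under it at 3.28 ± 0.082. Of the folate and aldehyde enzymes 4 of 12 were, among them Aldh1a1 at 8.75 ± 0.046, Aldh2 at 7.25 ± 0.14 and the glycine-cleaving Gldc, which read 7.26, 7.52, 7.69 and 7.64, in the same sample order from lowest to highest as Aldh1l1 except between samples 15 and 17. Aldh1l2, the mitochondrial relative, was under background at 5.53 ± 0.023. Of the glial transcription factors 12 of 18 passed, with Sox2 at 7.61 ± 0.055, Stat3 at 7.76 ± 0.19, Zbtb20 at 9.41 ± 0.18 and Sox5 under the limit at 5.66 ± 0.0075. In the agreement test 1 of the 6 genes tested in that list was called, Zbtb20 (adjusted p = 7.5e-05, limma-squeezed), and 0 of 18 over the other astrocyte-related lists.

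Markers of other cells varied over the same samples. The myelin list, 7 of 10 genes above background, had deviations of -0.19, 0.41, -0.061 and -0.16. All 7 were highest in sample 13, where 18.2% of all genes above background were. Microglial markers, 7 of 11, had deviations of -0.21, 0.037, 0.13 and 0.048, and the choroid plexus gene Ttr read 7.36, 9.84, 6.86 and 6.54. The mean deviation of the 12 neuron markers lay between -0.0087 and 0.0062, and between -0.026 and 0.021 after median centring. Single neuron markers moved more, and not all in 1 direction: Syp read 10.99, 11.02, 11.22 and 11.30, and Dlg4 read 9.14, 9.16, 9.05 and 8.83. Of the 9 member genes above background, Gfap, Gja1 and Gjb6 were highest in sample 13 as myelin markers were, while Slc1a3, Aqp4 and Aldh1l1 were highest in sample 17, S100b in sample 15 and Slc1a2 in sample 11, and Glul was tied between samples 13 and 15. Slc1a3 was lowest in sample 13. In the agreement test Cnp and Mal were called among 4 myelin genes tested (adjusted p = 0.0462 and 0.0369, limma-squeezed), C1qb among 2 microglial genes (0.0322) and Ttr as the 1 choroid plexus gene tested (7.5e-05). The part of other cells in the members' values was not tested.

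**Figure D4:**
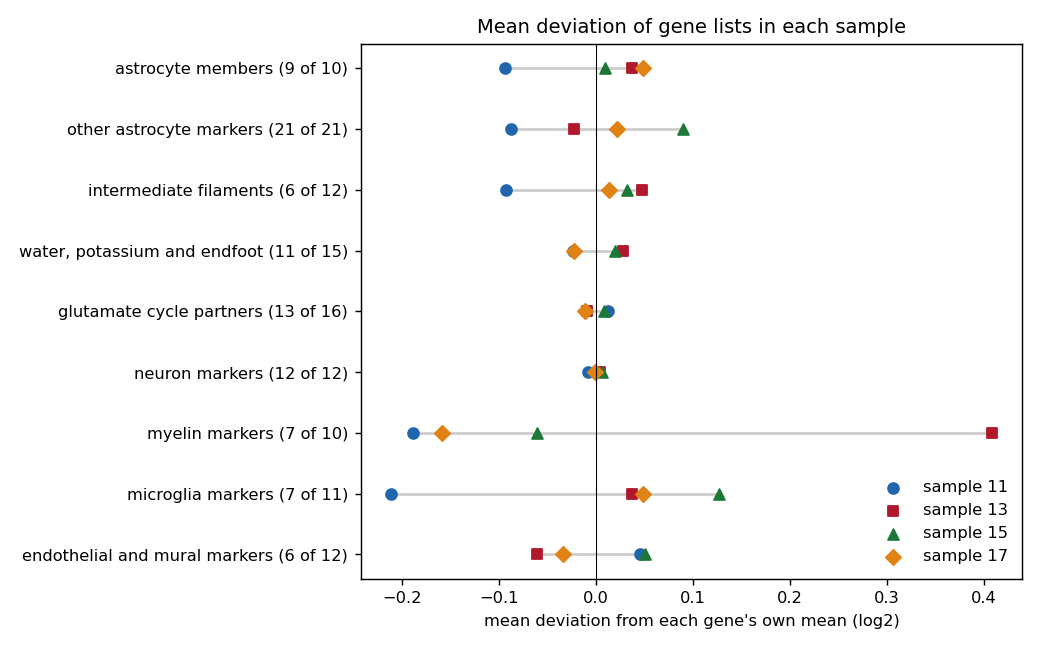
Mean deviation of each gene list from its genes' own means (horizontal axis, log2) in samples 11, 13, 15 and 17, with the number of genes above background of those measured beside each name. The 9 astrocyte members span -0.094 to 0.048, neuron markers cluster at 0 and myelin markers reach 0.41 in sample 13.

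The pattern of Gfap, the member with the largest SD by its brightest set, was compared with that of 6885 other genes above background by the Euclidean distance between their 4 deviations. The nearest were Efhd1 at a distance of 0.047, Serpinb6a at 0.056, Eci1 at 0.089, Sqle at 0.10 and Slc43a2 at 0.10. Efhd1 read 6.91, 7.43, 7.25 and 7.39. The nearest member was Gjb6, at 0.274, and the farthest Slc1a2, at 0.544. A small distance over 4 samples is a description of these arrays only.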

How the data were processed

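The authors deposited 1 log2 intensity for each probe set and array, for which the submitters' processing notes name RMA; neither version nor settings were stated in the sources available. Per the labels' protocols, total RNA was DNase treated, amplified and labelled with biotin. Arrays have no read depth, and their number, 4, limits the precision. Of 33 member probe sets, 11 hold values in 2 or more samples that are identical in every deposited digit.

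Genes were named from probe sets with 1 symbol in the probe table (34958 of 45101; 932 have several, 9211 none). A gene's level is that of its probe set with the highest mean. The test of spread used limma (lmFit, eBayes with trend and robust fit) on the 10561 probe sets above background, giving an F ratio (3 residual, 2.3 prior degrees of freedom). The agreement test divided the mean square between samples by that of probe set by sample, squeezed with squeezeVar. Both were Benjamini-Hochberg adjusted over all features tested, at 0.05. Tested on simulated data, the agreement test recovered planted shifts when all probe sets had the same spread; the spread test did so too, but recovered no planted change once the spread was as uneven as in these arrays. Of the list of genes not expected in hippocampus, Krt10, Lor and Tff1 lay above the limit.

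Members and lists were chosen with earlier results of these data known. All member probe sets are named. From other lists, genes were drawn from the first 2 measured and the 2 above background with the largest SD. Genes called in the agreement test, Panx1, Tm4sf1 and Tff1 were named besides, as were the 5 genes nearest to the most variable member. Not every gene or list that this rule covers is described. Alternatives covered the background limit, filter, normalization, priors, probe set summary, covariate and samples left out. The range over 0.5, the disagreement over 1, the lists and sample orders under other scalings and the disagreement with the covariate were added after values were seen. Software was Python 3.11.15 with matplotlib 3.10.9, and limma 3.58.1 under R 4.3.3.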

Additional observations from a re-analysis of the deposited data

Results flagged for a closer look

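In 7 of 33 member probe sets and 2 of 17 gene lists, 1 sample lay apart from the other 3: the gap to its neighbour, divided by the whole range, exceeded Dixon's critical value. Chance gives about 1 such group in 20. In 5 of the probe sets the ratio was 1.0 because the other 3 samples hold the same value: 1433094_at of Slc1a2 (range 0.082), 1440491_at of Slc1a3 (0.12), 1447745_at of Aqp4 (0.066), and 1415800_at (0.33) and 1415801_at (0.25) of Gja1. Of these only 1415800_at is above background, with sample 11 low. The ratio was 0.862 for 1439072_at of Slc1a3, with sample 17 low, and 0.837 for 1424950_at of Sox9, with sample 13 high. For the lists it was 0.925 for reactive astrocyte genes and 0.900 for folate and aldehyde enzymes, both with sample 11 low.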

How the results depend on the processing

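The spread test made 0 calls under all 13 alternatives, with a smallest adjusted p of 0.451 to 0.940, and it had no power to make one. Member probe sets above background numbered 16 to 24. The count of member genes called for agreement did not hold: it was 0 with the 90th percentile as background, with quantile normalization again, without samples 15 and 17, without the filter and without squeezing, 2 with median centring and with the Gapdh 3' minus 5' covariate, 3 with the highest background, and 0 to 1 with each sample left out. The adjusted p of Gfap ran from 0.00326 (covariate) to 0.332 (without sample 11) and passed in 4 of 12 alternatives. With the highest background the 3 genes called were Gfap, S100b and Slc1a3. Over all genes the calls went from 44 to 19 with the 90th percentile, 88 with median centring, 13 without samples 15 and 17, 13 without the filter, 184 with the covariate, and 2 to 9 with each sample left out. The cause was not tested. Member genes highest in sample 11 numbered 2 without samples 15 and 17, 3 by the mean over probe sets and 2 by the median. In sample 13 they numbered 7 without samples 15 and 17. In sample 15 they numbered 0 with median centring and 1 to 3 with each sample left out, and in sample 17 they numbered 1 by the mean and 0 by the median over probe sets. No paired analysis was possible because there is 1 group. Levels moved by less than their SD except with the mean (6 of 9 genes) and the median (7 of 10 genes) over probe sets, which read dimmer sets. SDs moved more: without sample 13 from 0.182 to 0.052 for Gjb6, 0.094 to 0.033 for Gja1, 0.120 to 0.056 for Slc1a3 and 0.148 to 0.023 for Sox9; without sample 11 from 0.234 to 0.126 for Gfap and 0.220 to 0.095 for Aldh1l1; without sample 17 from 0.074 to 0.035 for Aqp4.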

Other observations

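The probe set left out because it names both Gm13872 and Slc1a2, 1433095_at, read 5.53, 5.44, 5.26 and 5.01 in the order of samples 11, 13, 15 and 17. It was under background and, as with the other Slc1a2 sets under the limit, gives no basis for an order of the samples.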
